A study of Homo sapiens with 6 samples.

Results

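Enzymes that write and erase methyl and acetyl marks on chromatin proteins were followed in medulloblastoma cells after loss of OTX2, a homeodomain transcription factor that Group 3 and Group 4 tumors express at high levels. The set held 55 of the 14884 genes with a named transcript cluster on the arrays. A transcript cluster is the group of probes that measures 1 transcript. Members were all genes whose symbol starts with KDM, KMT, SETD, PRMT, HDAC, MLL, SUV39H or SIRT. KDM6A, KDM6B, KDM1A, HDAC1 and HDAC2 were set aside by name, as were 3 antisense or divergent transcripts, and no symbol started with MLL in the annotation used. Where a gene had more than 1 cluster, as 2 members did, the one with the highest mean over the arrays was read. The rule itself reads symbols and mean levels over all 6 arrays, not differences between groups. KMT2A, KMT2E, SETD1B, SETD4, SETDB1 and SETDB2 were not analysed here.

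D283 is an established medulloblastoma cell line, grown here as tumorspheres on low-attachment plates with EGF and bFGF. Scramble cells (n = 3 arrays) received a non-silencing siRNA, and OTX2 KD cells (n = 3 arrays) received the OTX2 siRNA s9931, with no other alteration named for either group. The study's methods call the 3 cultures of a group biological replicates, and values are log2 expression after RMA. With 1 siRNA sequence on these arrays, effects on other transcripts cannot be told apart from effects of OTX2 loss. OTX2 itself read 10.56, 10.56 and 10.55 in scramble and 9.62, 9.57 and 9.57 in OTX2 KD, a 1.96-fold decrease (log2 fold change -0.97 ± 0.073, adjusted p = 8.7e-05). Throughout, a fold change is followed by its standard error, a single value in parentheses after a gene is its log2 fold change, and arrays are given in the order of replicates 1 to 3. The time between transfection and RNA extraction is not given in the sources used here.

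Lysine methyltransferases, most of which carry a SET domain, add methyl groups to histone lysines, and the position decides the association. H3K4 methylation marks promoters and enhancers, and H3K36 methylation marks transcribed gene bodies. H3K9 methylation and trimethylation of H4K20 mark condensed chromatin. Demethylases of the JmjC and LSD types remove these groups. PRMT enzymes methylate arginines on histones and on splicing and ribosomal proteins, and HDACs and the NAD-dependent sirtuins remove acetyl groups from histones and many other proteins. In neural progenitors several of these enzymes hold neuronal genes silent, and the class IIa HDACs bind MEF2 transcription factors.

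Among the 55 members 15 were higher and 14 lower in OTX2 KD at an adjusted p below 0.05, and the other 26 did not pass (limma, p-values adjusted over all 53617 clusters). The changes were mostly small, with 2 members at least 2-fold higher (KDM5B and KMT2C) and 4 at least 2-fold lower (KDM4E, SUV39H2, PRMT5 and SUV39H1). The share called, 52.7%, stands beside 27.9% of all clusters and 39.8% of the named genes, each read at its brightest cluster. All members but SETD9 were above the array median on every array, and among named genes at or above the median cluster mean 52.2% were called, so the members' share was near this background. By direction, 27.3% of the members were higher, beside 14.8% of all clusters, 16.6% of named genes and 21.0% of the brighter ones. Another 25.5% were lower, beside 13.1%, 23.2% and 31.3%. At least 2-fold higher were 3.12% of all clusters, 3.82% of named genes and 5.21% of the brighter ones, and at least 2-fold lower were 3.62%, 6.89% and 9.47%. The median log2 fold change of the members was 0.00027, beside 0.0019 over named genes and 0.055 over all clusters. After median centring of the arrays, which lowers each log2 fold change by the same 0.0876, the split was 10 higher and 18 lower. Over all 53617 clusters the split went from 7932 higher and 7034 lower to 6027 higher and 8611 lower. The balance of directions thus depended on scaling array-wide as well as in the members.

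Genes of proliferation and of neurons changed in the same comparison. All 26 measured proliferation markers fell, with a mean level per array of 8.09 to 8.13 in scramble and 5.59 to 5.82 in OTX2 KD. All 11 measured neuronal markers rose, with a mean level of 6.41 to 6.50 in scramble and 8.67 to 8.72 in OTX2 KD. The part of either change in the enzyme results was not tested. In these bulk samples fewer cells of a type and less RNA per cell cannot be told apart. Each of 12 measured medulloblastoma genes was above the array median on at least 1 array. PAX6 was below it on 3 of the 6 arrays, reading 3.48, 3.11 and 3.12 in scramble. Their mean level was 7.10 to 7.18 in scramble and 6.51 to 6.57 in OTX2 KD, with 3 higher, among them UNC5D (3.02), and 6 lower, among them TTR (-4.17) and NPR3 (-2.12). Of other lineages, 1 of 4 leukocyte, 3 of 5 endothelial, 2 of 2 fibroblast, 2 of 3 astrocyte and 2 of 5 oligodendrocyte genes were below the array median on all arrays. The mean level of the leukocyte list was 3.57 to 3.80 in scramble and 4.19 to 4.25 in OTX2 KD, with CD68 (1.13) and LYZ (0.91) higher past the test. LYZ was below the array median on 4 of the 6 arrays, and signal over background was not measured. The mean level of the oligodendrocyte list was 3.86 to 3.98 in scramble and 4.21 to 4.34 in OTX2 KD, with OLIG2 (0.78) and OLIG1 (0.53) higher past the test. The part of these lists in the enzyme results was not tested. No array stood apart, since pairs of the same group correlated at 0.990 to 0.993 across clusters and pairs of different groups at 0.959 to 0.965.

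The enzymes are described by role in turn, and the plot of fold changes shows all 55 genes. Counts per role stand beside 27.9% of all clusters and 52.2% of the brighter named genes called. Of the brighter named genes 21.0% were higher and 31.3% lower.

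**Figure D1:**
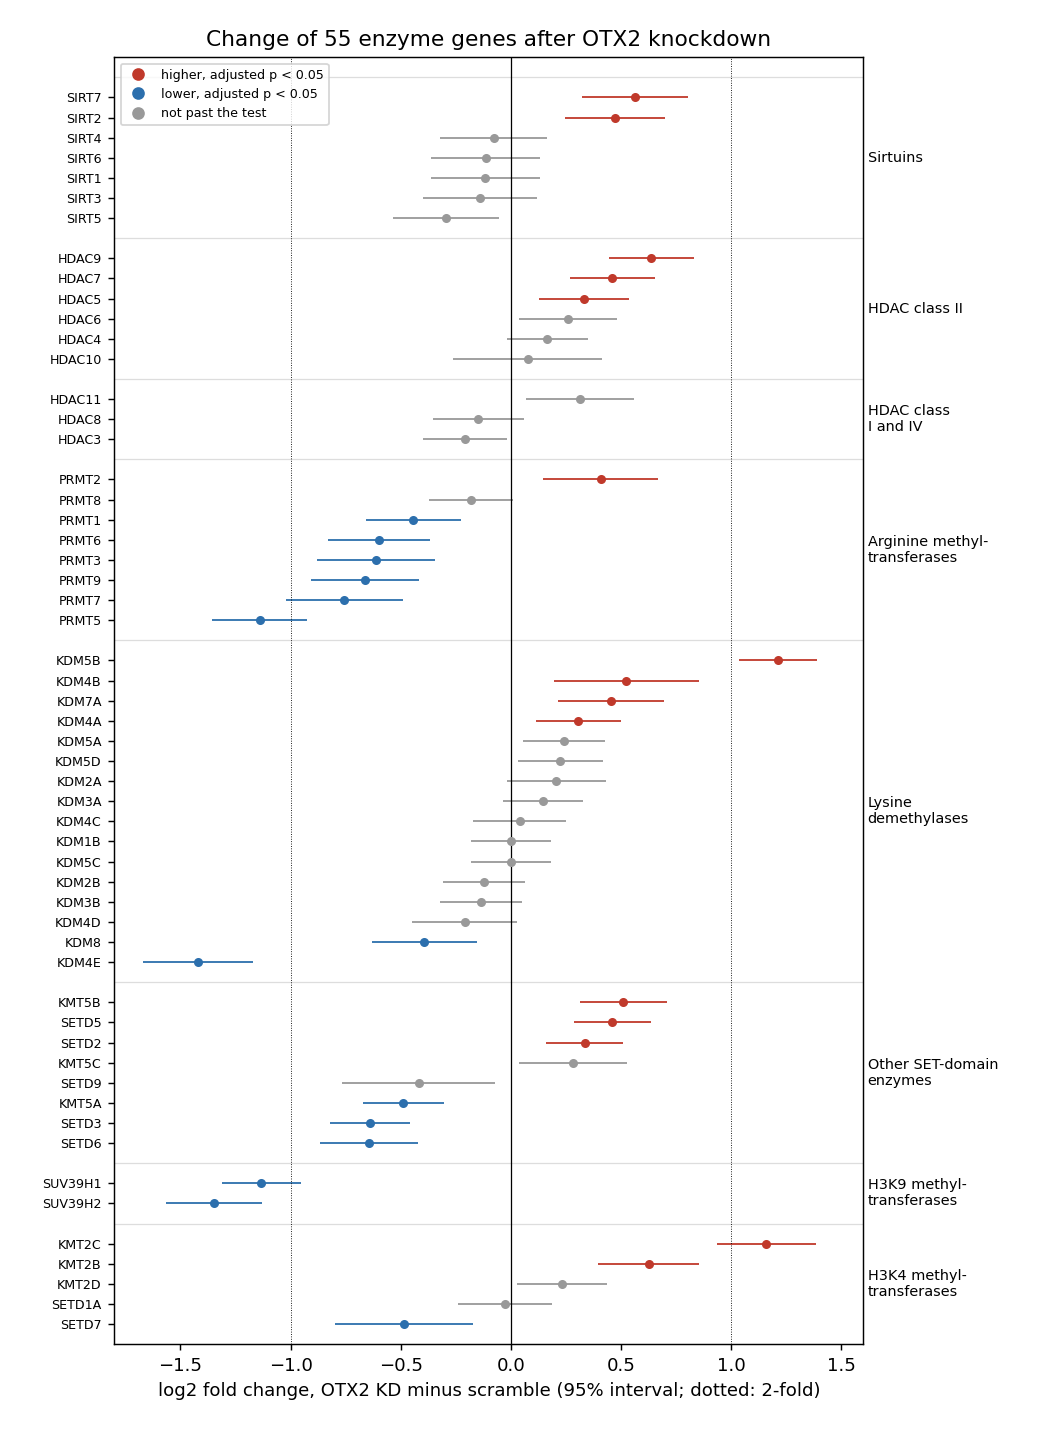
Log2 fold change (x axis, OTX2 KD minus scramble, with 95% interval) of each of the 55 enzyme genes (y axis), grouped by role; red points were higher, blue points lower and grey points not past adjusted p 0.05, and dotted lines mark 2-fold. KDM5B and KMT2C lie beyond the right dotted line, and KDM4E, SUV39H2, PRMT5 and SUV39H1 beyond the left.

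Promoter sequences are shown for 4 members to set the OTX2 recognition letters beside the measurements. The study names TAATCC and TAATCT as OTX2 motifs, and both were searched on both strands in RefSeq promoter windows that run from 250 bases before to 50 bases after the gene start. A window was found for 52 members; HDAC5, KDM4E and SIRT7 had none. Either motif occurred in 4 of the 52 windows (7.69%), namely those of HDAC9, KDM8, HDAC4 and KDM4D, beside 9.69% of the 10749 windows of named genes on the arrays. Of the 13 risers with a window 1 held a match (7.69%), and of the 13 fallers 1 did (7.69%). A match is a run of letters, not a measured binding site. The study also measured OTX2 binding in D283 tumorspheres by chromatin immunoprecipitation sequencing, reading a wider region around gene starts. Those binding data were not used here. The 250 bases before the start are printed for HDAC9 and KDM8, the members past the test that had a match, and for KDM5B and SUV39H2, the largest rise and the largest fall with a window, which had none. Capitals mark the motif or its reverse complement (GGATTA for the first and AGATTA for the second).
HDAC9 (GRCh38.p14, chr7:18495499-18495748, plus strand): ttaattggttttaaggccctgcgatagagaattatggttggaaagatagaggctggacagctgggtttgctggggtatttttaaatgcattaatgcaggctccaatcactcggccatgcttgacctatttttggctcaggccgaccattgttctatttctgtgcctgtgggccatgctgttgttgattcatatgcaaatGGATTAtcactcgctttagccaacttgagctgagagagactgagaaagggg
KDM8 (GRCh38.p14, chr16:27203276-27203525, plus strand): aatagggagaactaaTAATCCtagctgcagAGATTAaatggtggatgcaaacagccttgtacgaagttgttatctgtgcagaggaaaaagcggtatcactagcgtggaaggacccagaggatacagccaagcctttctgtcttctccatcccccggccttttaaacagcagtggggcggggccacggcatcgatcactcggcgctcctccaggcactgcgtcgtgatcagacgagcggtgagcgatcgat
KDM5B (GRCh38.p14, chr1:202808422-202808671, minus strand): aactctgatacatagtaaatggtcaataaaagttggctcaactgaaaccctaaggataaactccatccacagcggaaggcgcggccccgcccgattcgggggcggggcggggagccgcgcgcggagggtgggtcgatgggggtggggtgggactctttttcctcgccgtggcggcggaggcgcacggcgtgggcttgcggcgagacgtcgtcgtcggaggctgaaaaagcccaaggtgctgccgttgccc
SUV39H2 (GRCh38.p14, chr10:14878616-14878865, plus strand): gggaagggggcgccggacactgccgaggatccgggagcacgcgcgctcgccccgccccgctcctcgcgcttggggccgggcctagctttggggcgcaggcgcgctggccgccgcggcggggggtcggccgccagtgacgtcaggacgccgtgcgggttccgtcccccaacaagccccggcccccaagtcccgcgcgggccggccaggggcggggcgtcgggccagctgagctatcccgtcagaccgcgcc
The HDAC9 match began 51 bases before the start, and the KDM8 matches began 235 and 220 bases before it.

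Both members that methylate H3K9, the SUV39H paralogs of constitutive heterochromatin, fell by more than 2-fold. SUV39H2 read 6.33, 6.44 and 6.52 in scramble and 5.19, 4.99 and 5.07 in OTX2 KD. Each knockdown array lay at least 1.15 log2 units below each control array, a 2.54-fold decrease (log2 fold change -1.35 ± 0.093, adjusted p = 5.82e-05). SUV39H1 read 6.37, 6.40 and 6.31 in scramble and 5.21, 5.26 and 5.20 in OTX2 KD, with SDs of 0.044 and 0.034 within the groups. It fell 2.19-fold (log2 fold change -1.13 ± 0.076, adjusted p = 5.24e-05). A second, dimmer SUV39H1 cluster went the other way without passing (0.39 ± 0.138, adjusted p = 0.0801), and the mean of both clusters gave a log2 fold change of -0.37 (adjusted p = 0.0248). The related H3K9 enzymes EHMT1 and EHMT2, outside the symbol rule, had values of 0.22 and 0.20 and did not pass (adjusted p = 0.0864 and 0.112).

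Among 5 enzymes of H3K4 methylation, 2 rose, 1 fell and 2 did not pass. KMT2C, which methylates H3K4 at enhancers as part of an MLL3 complex, read 7.36, 7.60 and 7.56 in scramble and 8.63, 8.75 and 8.62 in OTX2 KD. The lowest knockdown array was above the highest control array by 1.03 log2 units, and KMT2C rose 2.23-fold (log2 fold change 1.16 ± 0.095, adjusted p = 0.000128). KMT2B, an MLL-family enzyme of promoters, read 6.58, 6.56 and 6.56 in scramble and 7.14, 7.36 and 7.07 in OTX2 KD. It rose 1.54-fold (log2 fold change 0.63 ± 0.097, adjusted p = 0.00264). KMT2D, the close paralog of KMT2C, was higher on each knockdown array than on each control array but did not pass (log2 fold change 0.23 ± 0.087, adjusted p = 0.09). SETD1A, a SET1-type enzyme, had overlapping groups (log2 fold change -0.03 ± 0.091, adjusted p = 0.861). SETD7, which monomethylates H3K4 and many non-histone proteins, read 7.92, 8.0 and 8.04 in scramble and 7.51, 7.75 and 7.24 in OTX2 KD. OTX2 KD replicate 3 was the lowest array and replicate 2 lay closest to the controls, and SETD7 fell 1.40-fold (log2 fold change -0.48 ± 0.133, adjusted p = 0.0318). Its call ended without any 1 of the arrays other than OTX2 KD replicate 2 (adjusted p up to 0.0937).

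Of the proteins that work with these H3K4 enzymes 12 were measured. Among them 2 were higher, 5 lower and 5 not past the test. The share called was 58.3%, beside 52.2% of the brighter named genes. The core subunits WDR5 (-0.68) and DPY30 (-0.31) fell on the log2 scale, whereas RBBP5 (-0.22, adjusted p = 0.112) did not pass. MEN1, the menin subunit of KMT2A and KMT2B complexes, fell 1.77-fold. Of the subunits that accompany KMT2C and KMT2D, PAXIP1 (-0.89) and PAGR1 (-0.61) fell while NCOA6 (0.84) rose. HCFC2 also rose (log2 fold change 0.53 ± 0.090, adjusted p = 0.00402).

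Other SET-domain enzymes numbered 8, of which 3 rose, 3 fell and the remaining 2 did not pass. The H4K20 enzymes did not all move the same way. KMT5A, the monomethylase whose protein cycles with cell division, read 6.12, 6.10 and 6.03 in scramble and 5.66, 5.56 and 5.57 in OTX2 KD, a 1.40-fold decrease (log2 fold change -0.49 ± 0.079, adjusted p = 0.00316). KMT5B, which adds further methyl groups to H4K20, read 7.48, 7.54 and 7.66 in scramble and 8.12, 8.05 and 8.05 in OTX2 KD, a 1.43-fold increase (log2 fold change 0.51 ± 0.085, adjusted p = 0.00348). KMT5C, the paralog of KMT5B, had non-overlapping groups, with each knockdown array higher, but did not pass (log2 fold change 0.28 ± 0.104, adjusted p = 0.0869). SETD2, the H3K36 trimethylase, was slightly higher on each knockdown array (log2 fold change 0.33 ± 0.075, adjusted p = 0.0138). That call ended without scramble replicate 2 (adjusted p = 0.051) and after median centring (0.0549).

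SETD5, a SET-domain protein linked to neurodevelopmental disorders, read 7.83, 7.89 and 7.84 in scramble and 8.31, 8.35 and 8.28 in OTX2 KD. It rose 1.38-fold (log2 fold change 0.46 ± 0.075, adjusted p = 0.00316), and the 3 arrays of each group lay within 0.06 log2 units of each other. SETD3, the histidine methyltransferase of actin, read 8.83, 8.78 and 8.84 in scramble and 8.23, 8.13 and 8.18 in OTX2 KD. It fell 1.56-fold (log2 fold change -0.64 ± 0.077, adjusted p = 0.000771). SETD6, a lysine methyltransferase of non-histone proteins such as the NF-kappaB subunit RelA, read 5.13, 5.23 and 5.41 in scramble and 4.61, 4.63 and 4.61 in OTX2 KD. It fell 1.56-fold (log2 fold change -0.64 ± 0.095, adjusted p = 0.00203), and its 3 knockdown arrays lay within 0.03 log2 units of each other. SETD9, below the array median on 2 arrays, had overlapping groups and did not pass (log2 fold change -0.42 ± 0.148, adjusted p = 0.0781).

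Lysine methyltransferases outside the symbol rule were measured for 13 genes. In OTX2 KD 3 of them were higher, 6 lower and 4 not past the test (69.2% called, beside 52.2% of the brighter named genes). The muscle enzyme SMYD1 (-1.57), the Polycomb enzyme EZH2 (-1.19), SMYD5 (-1.03) and the H3K36 enzyme NSD2 (-0.87) fell. NSD3 (1.03) and the EZH2 paralog EZH1 (0.85) rose. NSD2 and NSD3, paralogs of 1 family, had opposite directions, and the difference between the genes was not tested.

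The 16 lysine demethylases included 4 that rose, 2 that fell and 10 that did not pass. The share called was 37.5%, beside 27.9% of all clusters and 52.2% of the brighter named genes. The number that rose was 2 after median centring or without OTX2 KD replicate 3, and 1 without OTX2 KD replicate 1. KDM5B, which removes H3K4 methylation and is known as a marker of slowly cycling cells in melanoma, was the largest riser among the members. It read 8.65, 8.69 and 8.63 in scramble and 9.91, 9.87 and 9.84 in OTX2 KD. The groups were separated by 1.15 log2 units with SDs of 0.033 in each, and KDM5B rose 2.32-fold (log2 fold change 1.21 ± 0.075, adjusted p = 3.62e-05). The other KDM5 genes had smaller values: KDM5A 0.24 (95% interval 0.05 to 0.43), KDM5C 0.00 (95% interval -0.18 to 0.18) and KDM5D 0.22 (95% interval 0.03 to 0.42), and none of them passed (adjusted p = 0.0626, 0.999 and 0.0873). The interval of KDM5C excludes a change of the size seen for KDM5B.

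The KDM4 genes, which act on H3K9 and H3K36 methylation, ranged from a rise to the largest fall in the set. KDM4E read 5.35, 5.26 and 5.46 in scramble and 3.81, 4.10 and 3.88 in OTX2 KD. It fell 2.68-fold (log2 fold change -1.42 ± 0.106, adjusted p = 8.24e-05), and its knockdown values lay close to the array medians of 3.60 to 3.71, where signal over background was not measured. KDM4D, its closely related neighbour on the same chromosome, had overlapping groups and did not pass (log2 fold change -0.21 ± 0.101, adjusted p = 0.181). Hybridization of 1 paralog's RNA to the other's probes was not tested. KDM4B read 5.50, 5.87 and 5.87 in scramble and 6.45, 6.09 and 6.28 in OTX2 KD, with scramble replicate 1 below the other controls. It rose 1.44-fold (log2 fold change 0.53 ± 0.14, adjusted p = 0.0286), but the call ended without OTX2 KD replicate 1, OTX2 KD replicate 3 or scramble replicate 1 (adjusted p up to 0.0865) and after median centring (0.0665). KDM4A rose slightly (log2 fold change 0.31 ± 0.083, adjusted p = 0.0298), and its call ended without any 1 of the arrays other than scramble replicate 1 (adjusted p up to 0.101) and after median centring (0.107). KDM4C did not pass (log2 fold change 0.04 ± 0.089, adjusted p = 0.792).

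KDM7A, a demethylase of H3K9 and H3K27, read 5.78, 6.03 and 6.01 in scramble and 6.47, 6.30 and 6.42 in OTX2 KD. It rose 1.37-fold (log2 fold change 0.45 ± 0.102, adjusted p = 0.0144), with an adjusted p of 0.0509 without OTX2 KD replicate 1. KDM8, a JmjC-domain protein also known as JMJD5, was lower on each knockdown array than on each control array (log2 fold change -0.39 ± 0.101, adjusted p = 0.0245). Its call ended without OTX2 KD replicate 1 or 2 or scramble replicate 1 or 2 (adjusted p up to 0.0775). KDM1B, the paralog of LSD1, had nearly equal means in both groups, 7.54 and 7.54 (95% interval -0.18 to 0.18). KDM2A, KDM2B, KDM3A and KDM3B, which act mainly on H3K36 or H3K9, did not pass either, with log2 fold changes between -0.13 and 0.21. Outside the rule 8 related JmjC genes were measured, of which 2 were higher, 3 lower and 3 not past. Their share called was 62.5%, beside 52.2% of the brighter named genes. JMJD1C (1.14) and PHF2 (0.73) rose, and the ribosomal oxygenases RIOX2 (-1.88) and RIOX1 (-0.56) and JMJD8 (-0.78) fell.

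**Figure D2:**
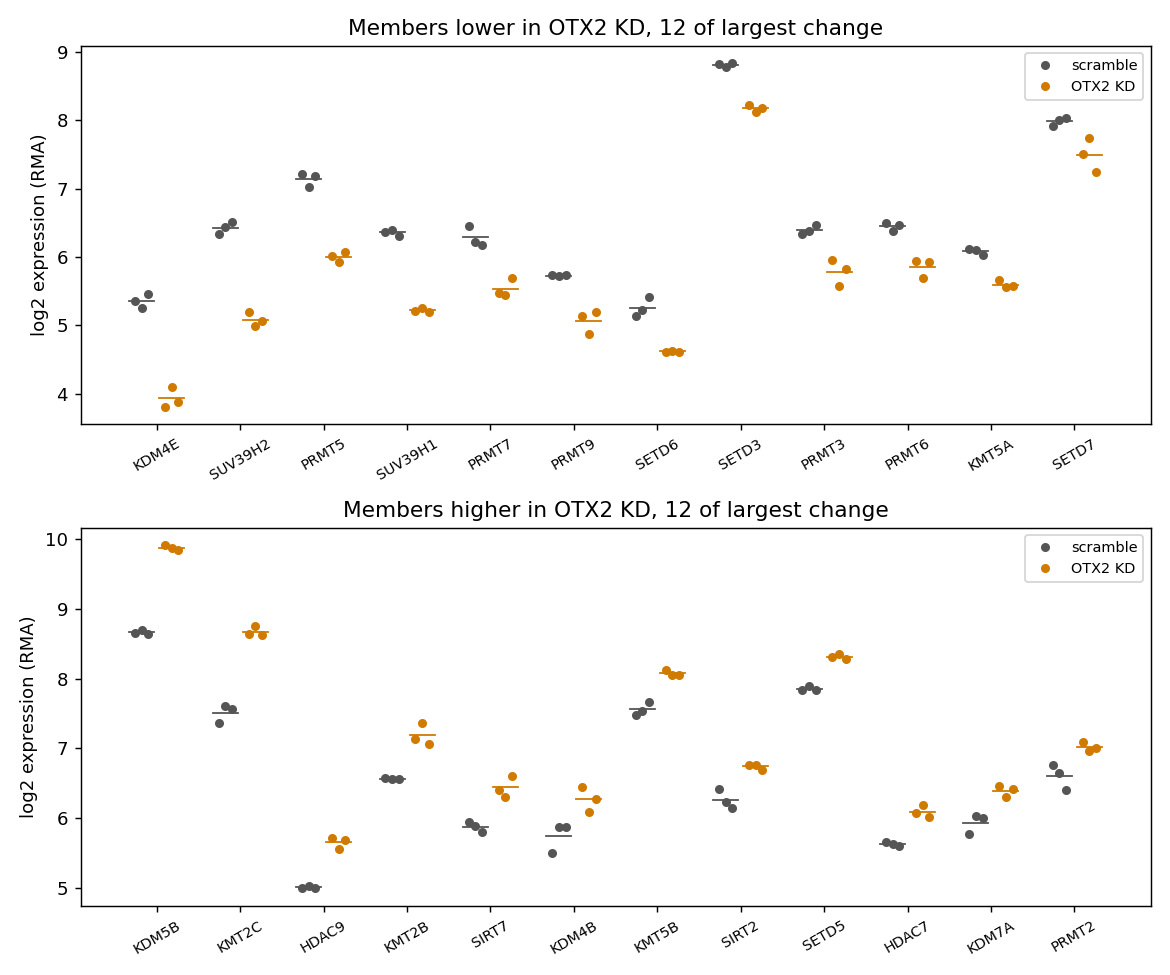
Log2 expression (y axis, RMA) on each of the 3 scramble (grey) and 3 OTX2 KD (orange) arrays, with the group mean as a line, for the 12 members of largest fall (top) and of largest rise (bottom) among those past adjusted p 0.05 with non-overlapping groups. SETD7 and KDM4B have the widest spread in OTX2 KD and in scramble among the genes plotted.

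Among 8 arginine methyltransferases 6 fell (75.0%, beside 31.3% of the brighter named genes), 1 rose and the other did not pass, and their median log2 fold change was -0.61. The 6 that fell also passed under every alternative other than the 1.5-fold limit. PRMT5, the main enzyme of symmetric arginine dimethylation, which acts on spliceosomal Sm proteins and histones, read 7.21, 7.02 and 7.19 in scramble and 6.01, 5.93 and 6.07 in OTX2 KD. It fell 2.20-fold (log2 fold change -1.14 ± 0.091, adjusted p = 0.00011), and each knockdown array was below each control array by at least 0.95 log2 units. Its obligate cofactor WDR77, also called MEP50, read 8.11, 7.99 and 7.98 in scramble and 6.94, 6.74 and 6.82 in OTX2 KD. WDR77 fell 2.28-fold (log2 fold change -1.19 ± 0.090, adjusted p = 8.78e-05), and the histone-directed PRMT5 adaptor COPRS also fell (log2 fold change -0.39 ± 0.087, adjusted p = 0.0136).

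PRMT7, the monomethylating enzyme, read 6.46, 6.22 and 6.18 in scramble and 5.47, 5.44 and 5.69 in OTX2 KD, a 1.69-fold decrease (log2 fold change -0.76 ± 0.113, adjusted p = 0.00218). PRMT9, which modifies the splicing factor SF3B2, read 5.73, 5.72 and 5.74 in scramble and 5.13, 4.87 and 5.20 in OTX2 KD. The controls were within 0.02 log2 units of each other, and PRMT9 fell 1.58-fold (log2 fold change -0.66 ± 0.104, adjusted p = 0.0027). PRMT3, which methylates the ribosomal protein RPS2, read 6.33, 6.38 and 6.47 in scramble and 5.95, 5.57 and 5.83 in OTX2 KD, a 1.53-fold decrease (log2 fold change -0.61 ± 0.114, adjusted p = 0.00611). PRMT6, which places an H3R2 mark that opposes H3K4 methylation, read 6.50, 6.38 and 6.47 in scramble and 5.94, 5.69 and 5.93 in OTX2 KD. It fell 1.51-fold (log2 fold change -0.60 ± 0.098, adjusted p = 0.00325). PRMT1, the main enzyme of asymmetric dimethylation, fell 1.36-fold (log2 fold change -0.44 ± 0.092, adjusted p = 0.00989), with levels of 5.69 to 5.82 in scramble and 5.19 to 5.42 in OTX2 KD.

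PRMT2 was the member of the family that rose. It read 6.77, 6.65 and 6.41 in scramble and 7.09, 6.97 and 7.0 in OTX2 KD, a 1.33-fold increase (log2 fold change 0.41 ± 0.111, adjusted p = 0.0306). The scramble arrays spanned 0.36 log2 units, and the call ended without any 1 of the arrays other than scramble replicate 1 (adjusted p up to 0.0907) and after median centring (0.0739). PRMT8, a neuronal membrane-anchored relative of PRMT1, had non-overlapping groups, each knockdown array lower, but did not pass (log2 fold change -0.18 ± 0.081, adjusted p = 0.148). CARM1, the enzyme also known as PRMT4 and not covered by the symbol rule, did not pass (log2 fold change -0.09 ± 0.101, adjusted p = 0.569). CARM1 was among 6 measured genes listed under arginine methylation outside the rule, with 1 higher, 3 lower and 2 not past. The share called was 66.7%, beside 52.2% of the brighter named genes. Besides WDR77 and COPRS, METTL23 (-0.80) fell. The listed gene that rose was FBXO11 (0.83), an F-box protein whose part in arginine methylation was not tested here.

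Of 16 HDAC and sirtuin members, 5 rose, 11 did not pass and 0 fell by limma. That is 31.2% higher, beside 14.8% of all clusters and 21.0% of the brighter named genes, and none lower, beside 13.1% and 31.3%. At an unadjusted p below 0.05, 2 were lower, HDAC3 and SIRT5, and both also passed as lower after median centring of the arrays. HDAC3, the catalytic subunit of the NCoR and SMRT corepressors, had a log2 fold change of -0.21 (95% interval -0.40 to -0.02, adjusted p = 0.103), and HDAC8 one of -0.15 (95% interval -0.35 to 0.06, adjusted p = 0.273). HDAC11, the class IV enzyme, had 0.31 (95% interval 0.07 to 0.56, adjusted p = 0.0636). The class I enzymes HDAC1 and HDAC2, set aside by the rule, had -0.13 and 0.10 and did not pass either.

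The class IIa enzymes, which shuttle between nucleus and cytoplasm, accounted for the HDAC genes that rose. HDAC9 read 5.0, 5.04 and 5.01 in scramble and 5.72, 5.56 and 5.69 in OTX2 KD. It rose 1.56-fold (log2 fold change 0.64 ± 0.082, adjusted p = 0.00105), and its controls spanned 0.04 log2 units. HDAC7 read 5.66, 5.64 and 5.61 in scramble and 6.08, 6.19 and 6.02 in OTX2 KD, a 1.38-fold increase (log2 fold change 0.46 ± 0.082, adjusted p = 0.00483). HDAC5 rose 1.26-fold, from 8.26 to 8.46 in scramble to 8.67 to 8.75 in OTX2 KD (log2 fold change 0.33 ± 0.086, adjusted p = 0.0255). The HDAC5 call ended without any 1 of the arrays other than scramble replicate 1 (adjusted p up to 0.0808) and after median centring (0.0772). HDAC4, the remaining class IIa gene, had 0.17 at its brighter cluster (95% interval -0.02 to 0.35) and 0.21 at its other cluster, and neither passed (adjusted p = 0.166 and 0.151). The class IIb genes HDAC6, the tubulin deacetylase, and HDAC10, a polyamine deacetylase, had 0.26 and 0.08 and did not pass (adjusted p = 0.0838 and 0.744). Of the MEF2 factors bound by class IIa enzymes, MEF2A rose (0.38), MEF2C fell (-0.61) and MEF2D did not pass (0.24, adjusted p = 0.0836).

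Of 7 sirtuins, 2 rose and 5 did not pass. SIRT7, a nucleolar sirtuin that associates with RNA polymerase I, read 5.95, 5.89 and 5.81 in scramble and 6.41, 6.31 and 6.61 in OTX2 KD. It rose 1.48-fold (log2 fold change 0.56 ± 0.103, adjusted p = 0.00548). SIRT2, the mainly cytoplasmic tubulin deacetylase of the brain, read 6.42, 6.24 and 6.15 in scramble and 6.77, 6.77 and 6.69 in OTX2 KD. It rose 1.39-fold (log2 fold change 0.47 ± 0.096, adjusted p = 0.00899). SIRT1, the nuclear sirtuin, had overlapping groups and a log2 fold change of -0.12 (95% interval -0.36 to 0.13). The mitochondrial sirtuins SIRT3, SIRT4 and SIRT5 and the nuclear SIRT6 had values from -0.29 to -0.08, and none passed. SIRT5 had non-overlapping groups and an adjusted p of 0.0758.

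Partners of the deacetylases were measured for 22 genes, with 8 higher, 7 lower and 7 that did not pass. Their share called was 68.2%, beside 52.2% of the brighter named genes. The ELM2-SANT domain protein TRERF1 (1.30), the NuRD helicase CHD3 (0.86), the SIN3 partner ARID4B (0.80) and the NuRD subunit GATAD2B (0.71) rose. The histone chaperone RBBP7 (-0.88), GATAD2A (-0.74) and the NCoR subunit TBL1XR1 (-0.65) fell. The NuRD paralogs GATAD2A and GATAD2B had opposite directions, and the difference between them was not tested. The count of 8 risers was 5 after median centring and also 5 without OTX2 KD replicate 1.

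Among genes listed for adding acetyl groups, methylating DNA or reading histone marks, some rose and others fell. Of 13 acetyltransferase genes 6 rose and 3 fell (69.2% called, beside 52.2% of the brighter named genes). NCOA2 (1.06), KAT6B (0.98), EP300 (0.60) and CREBBP (0.31) were among the risers, and KAT2B (-1.40), HAT1 (-1.23) and KAT2A (-1.16) fell. Of 10 genes of DNA methylation 3 rose and 3 fell (60.0% called, beside the same 52.2%). UHRF1, which brings DNMT1 to replicating DNA and reads H3K9 methylation, fell 4.97-fold, DNMT1 fell 1.43-fold, and TET2 rose 1.97-fold. Of 24 genes listed as readers of histone marks 7 rose and 4 fell (45.8% called, beside 52.2% of the brighter named genes). Reading of marks by each listed protein was not tested. The counts were 3 and 7 with median-centred arrays. TP53BP1, which binds dimethylated H4K20, rose 2.81-fold, ATRX rose 1.54-fold, and TRIM28 and SND1 fell 1.49-fold and 1.47-fold. The H3K9 reader CBX5, a heterochromatin protein 1, fell (log2 fold change -0.38 ± 0.078, adjusted p = 0.0088), whereas CBX1 and CBX3 did not pass. Over the 108 measured genes of these chromatin lists 32 rose and 34 fell. The share called, 61.1%, stands beside 27.9% of all clusters, 39.8% of named genes and 52.2% of the brighter ones. With median-centred arrays 22 of the 108 were higher and 41 lower.

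**Figure D3:**
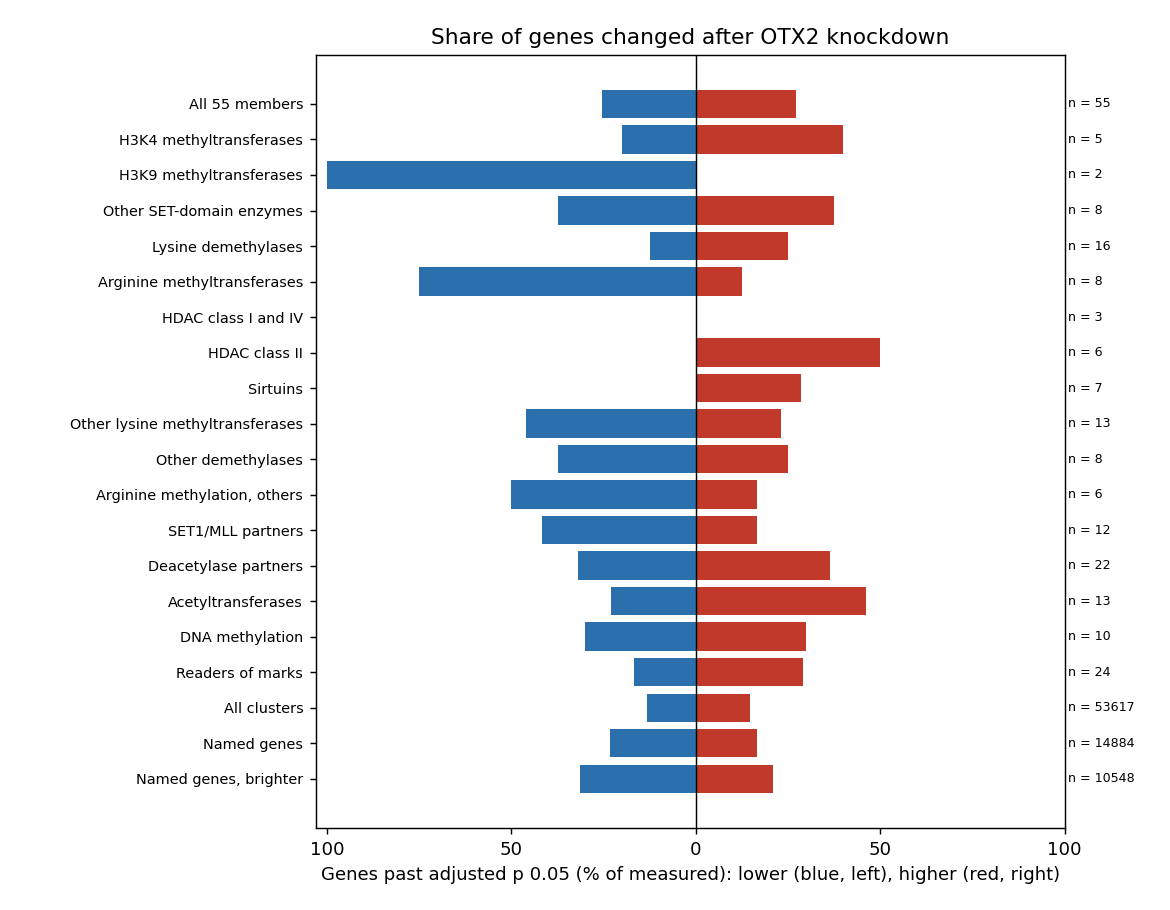
Percent of measured genes past adjusted p 0.05 (x axis; red bars to the right higher, blue bars to the left lower in OTX2 KD) for all 55 enzyme genes, each role group, the chromatin lists outside the rule, and the array-wide backgrounds, with the number measured at the right. Arginine methyltransferases (6 of 8 lower) and the SUV39H genes (2 of 2 lower) extend left, and class II HDACs (3 of 6 higher) extend right.

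Within the enzyme set scramble and OTX2 KD arrays did not overlap for 43 of 55 genes (78.2%), beside 42.0% of all clusters, 55.5% of named genes and 68.7% of named genes at or above the median cluster mean. Of these 43 genes 14 did not pass the test. Among the 29 members past it, 21 also passed without any 1 array. A test against a 1.5-fold limit was passed by 6: KDM5B, KMT2C, KDM4E, SUV39H2, SUV39H1 and PRMT5. Of all 53617 clusters, 1507 passed that test as higher and 1894 as lower.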

How the data were processed

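RNA from 6 D283 tumorsphere cultures was hybridized to Affymetrix Human Gene 2.0 ST arrays. Values were deposited as log2 expression. Per the methods, the authors ran RMA in Expression Console, which corrects background, normalizes by quantiles and summarizes probes to 1 value per transcript cluster. No detection call was used, so signal over background was not measured, and the number of arrays limits the precision. Groups and replicate numbers came from the sample titles.

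All 53617 clusters were fitted by lmFit and eBayes (limma 3.58.1, R 4.3.3), without covariates and two-sided, and adjusted by the Benjamini-Hochberg method. Of these, 16098 had 1 gene symbol in the annotation used, 0 had several and 37519 had none. Errors are SE of the log2 fold change or SD of 3 arrays, and intervals are 95% intervals of the fit. Members and gene lists were chosen with earlier results of these data known. Per-array values were given for the 12 largest rises and 12 largest falls past adjusted p 0.05 with non-overlapping groups. From each list of other genes the rule named the 2 largest rises and 2 largest falls past the test. Of the genes so named, CDK1, KIF20A, NHLH1, MAP2 and MBD1 are not described in the text. The other list genes in the text were chosen after their values were seen. Promoter windows were from RefSeq (GRCh38.p14). The scripts were tested on simulated data. Python 3.11.15 with matplotlib 3.10.9 made the plots.

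Alternatives were a replicate block, median centring, a repeated quantile normalization, brighter clusters only, clusters with 1 symbol only, trend and robust variance, a test against a 1.5-fold limit, an unadjusted p, the mean of a gene's clusters, and leaving out each array.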

Additional observations from a re-analysis of the deposited data

How the results depend on the processing

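All 29 members past the test kept their direction under every alternative tried, but most alternatives could not reverse it. The replicate block, brighter or 1-symbol clusters, trend and robust variance, the 1.5-fold limit and an unadjusted p keep the same fold change. The groups of these members did not overlap, so leaving out 1 array could not reverse them either. Of the 29 members, 21 also stayed past the threshold under all alternatives except the 1.5-fold limit. The test against a 1.5-fold limit left 2 higher and 4 lower members, and 7 higher and 9 lower of the 108 other chromatin genes. Of all 53617 clusters that test left 1507 higher and 1894 lower. Median centring moved the median log2 fold change of enzyme genes from 0.00027 to -0.0873. It shifts every value down by the same amount and gave 10 higher and 18 lower members, where the repeated quantile normalization gave 18 and 16. Over all 53617 clusters median centring gave 6027 higher and 8611 lower, and the repeated quantile normalization 7195 and 7288. Among members that did not pass, 10 passed under at least 1 alternative. Without single arrays the members higher ranged from 10 to 16 and those lower from 12 to 14, the 2-fold counts stayed at 2 and 4, the median ranged from -0.023 to 0.025, and OTX2 from -0.99 to -0.96. The other chromatin genes ranged from 25 to 28 higher and from 30 to 33 lower.

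With the replicate number as a block, 11 members were higher and 12 lower, and the calls of SETD2, SETD7, KDM8, KDM4A, KDM4B and HDAC5 ended. Whether same-numbered cultures were prepared together is not stated in the labels. Deviations of same-numbered arrays from their group means correlated at -0.056, -0.023 and -0.00072. These values showed no shared deviation but cannot settle whether the arrays were paired. Signal over background was not measured, which limits the values of dim clusters such as those of KDM4E and SETD9.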
